A study of Mus musculus with 2 samples.

Results

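The matricellular and adhesive matrix genes Fn1, Tnc, Tnxb, Cd44, Postn, Spp1, Sparc, Thbs1, Thbs2 and Npnt were described in whole mouse lung at embryonic day 15.5. All transcripts listed for these symbols were taken, which gave 10 of 43346 Ensembl genes and 64 of 103639 Ensembl transcripts. Total RNA of B6NCrl embryos, male and female pooled, was sequenced from a pool of 78 lungs (replicate 1) and a pool of 62 lungs (replicate 2). The labels name no treatment and no allele, and the 2 libraries form a single group, so no condition could be compared. At this age of 15.5 days the airways still branch.

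Levels are given in TPM, transcript levels scaled to a fixed total, which are per length and so can be compared between genes, for replicate 1 and then replicate 2, followed by the mean ± SD (n = 2). A feature counted as detected from 1 TPM in both libraries, and 2 features were said to differ in level where the deposited TPM intervals were separate, in the same direction, in each library. The libraries held 40395849.9 and 36601054.1 estimated reads, and for the 10 genes these ranged from 109 and 140 for Spp1 to 62042 and 54559 for Sparc. Markers of lung epithelium, mesenchyme and endothelium were detected for 3 of 3 genes each, as the tissue label says. The 4 liver markers summed to 22.3 and 111 TPM, the 4 heart and muscle markers to 64.7 and 243 TPM and the 4 thymus markers to 39.6 and 10.0 TPM, with no marker at 0 in both libraries. Apart between the libraries meant a mean of 5 TPM or more, a 2-fold difference and separate intervals. By this rule 4 liver and 4 heart and muscle markers were higher in replicate 2, and the thymus markers Lck and Cd3e higher in replicate 1. The other 2 thymus markers, Ptcra (6.89 and 1.06 TPM) and Rag1 (2.46 and 0.50 TPM), differed likewise but had means under 5 TPM. The part of these markers' tissues in the values of the 10 genes was not tested. In whole lung, fewer cells of a type and less RNA per cell cannot be told apart.

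Fibronectin is a fibrillar adhesive glycoprotein of the matrix, built of repeated modules, and cells assemble and hold it through integrins. Tenascins, thrombospondins, periostin, SPARC and osteopontin are matricellular proteins, which are secreted into the matrix and change how cells adhere to it and signal rather than carry load. Several of these genes are known for alternative exons that add or remove whole protein modules, and CD44, a cell-surface receptor for hyaluronan and osteopontin, is known for a block of variable exons in its extracellular stem.

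The results on isoforms turn on a small set of coding exons. Each sequence was cut from the GENCODE M21 transcripts (GRCm38), is written 5′ to 3′ on the strand of the gene, and was identical in every complete coding transcript that holds it. Of the 20 alternative exons and exon parts read, 20 had a length that is a multiple of 3 and 0 held an in-frame stop codon in the complete coding transcripts. Only exons of complete coding transcripts were read, in the frame of those transcripts, so the lack of stop codons followed from this choice. The choice also left out the 106-nt exon of Fn1-210, whose length is not a multiple of 3. The first set is from Fn1 (minus strand): EIIIB at chr1:71613763-71614035 and EIIIA at chr1:71603660-71603929, each a whole type III module, and the first 75 nt of the variable V segment at chr1:71597673-71597747. Capitals mark the codons of the loop in EIIIA known to bind the integrins α4β1 and α9β1, and in V the leucine, aspartate and valine codons at the core of the α4β1 binding site.
Fn1 EIIIB: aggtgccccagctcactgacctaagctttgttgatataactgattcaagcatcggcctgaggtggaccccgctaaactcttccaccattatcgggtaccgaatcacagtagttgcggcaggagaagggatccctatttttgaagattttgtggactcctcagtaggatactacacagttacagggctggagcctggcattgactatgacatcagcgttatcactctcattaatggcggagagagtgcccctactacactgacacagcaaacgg
Fn1 EIIIA: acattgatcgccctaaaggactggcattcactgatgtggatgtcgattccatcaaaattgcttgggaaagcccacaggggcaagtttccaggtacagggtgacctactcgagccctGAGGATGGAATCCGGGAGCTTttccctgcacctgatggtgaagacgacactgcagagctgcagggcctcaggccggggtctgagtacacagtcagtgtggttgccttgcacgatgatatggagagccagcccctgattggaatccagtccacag
Fn1 V first part: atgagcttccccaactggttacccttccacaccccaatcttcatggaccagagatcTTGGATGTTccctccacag

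The second set is the stem of Cd44 (chromosome 2, minus strand), whose 10 alternative exons are numbered here in transcript order. Exons 5, 6, 8, 9 and 10 are the alternative exons of the leading transcript, which passes over exons 1 to 4 and exon 7. Exons 5 to 10 are printed below. They lie at chr2:102842261-102842377, chr2:102839358-102839477, chr2:102837813-102837938, chr2:102834234-102834335, chr2:102832483-102832572 and chr2:102831330-102831536, in the order of exons 5 to 10. Capitals in exon 9 mark GAAGAAGA, a purine-rich run of the kind known from exonic splicing enhancers, searched as an RNA motif on the transcribed strand only. It occurred in 1 of the 20 sequences read and in 1.67% of 23874 internal coding exons of 80 to 100 nt, and such a match is a description of the letters and not a site.
Cd44 exon 5: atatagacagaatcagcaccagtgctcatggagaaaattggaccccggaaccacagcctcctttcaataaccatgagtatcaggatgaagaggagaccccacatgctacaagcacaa
Cd44 exon 6: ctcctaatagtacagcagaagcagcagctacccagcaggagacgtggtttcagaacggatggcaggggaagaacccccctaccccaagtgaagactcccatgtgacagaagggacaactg
Cd44 exon 7: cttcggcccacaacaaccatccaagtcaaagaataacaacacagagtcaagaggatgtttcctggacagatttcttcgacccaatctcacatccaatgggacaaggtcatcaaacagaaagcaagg
Cd44 exon 8: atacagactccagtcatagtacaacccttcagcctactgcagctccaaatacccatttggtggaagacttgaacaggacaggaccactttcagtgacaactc
Cd44 exon 9: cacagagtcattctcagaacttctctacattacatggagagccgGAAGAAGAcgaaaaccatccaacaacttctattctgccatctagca
Cd44 exon 10: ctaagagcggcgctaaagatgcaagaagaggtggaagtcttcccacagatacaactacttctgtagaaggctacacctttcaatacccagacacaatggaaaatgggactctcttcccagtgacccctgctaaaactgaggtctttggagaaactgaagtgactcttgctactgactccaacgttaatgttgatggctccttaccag

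The third set holds cassettes of other genes. They are a type III module of Tnc at chr4:63984460-63984732 (minus strand), 2 exons of the C-terminal region of Postn at chr3:54380412-54380492 and chr3:54385671-54385754 (plus strand), and an exon of Npnt at chr3:132931582-132931632 (minus strand). No letter is in capitals, since no motif was marked in them.
Tnc 273 nt: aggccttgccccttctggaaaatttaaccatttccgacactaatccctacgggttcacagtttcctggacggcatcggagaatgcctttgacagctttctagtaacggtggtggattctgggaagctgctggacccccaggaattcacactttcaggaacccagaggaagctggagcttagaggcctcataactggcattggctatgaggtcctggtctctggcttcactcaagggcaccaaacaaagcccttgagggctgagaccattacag
Postn 81 nt: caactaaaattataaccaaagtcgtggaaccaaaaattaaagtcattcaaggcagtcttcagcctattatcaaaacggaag
Postn 84 nt: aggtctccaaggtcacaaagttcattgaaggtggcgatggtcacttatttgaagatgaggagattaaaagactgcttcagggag
Npnt 51 nt: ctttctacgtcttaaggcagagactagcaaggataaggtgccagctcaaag

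The question of the gene levels was how much RNA the lung held from each gene, over all its listed transcripts, and in what order. Of the 10 genes, 9 were detected, against 33.6% of all Ensembl genes, and all but Tnxb and Spp1 were above 20 TPM. Sparc led by more than 10-fold over the next gene, a middle group of Thbs1, Fn1, Postn and Npnt lay between 77.1 and 155 TPM, and Tnc, Cd44 and Thbs2 lay between 21.9 and 34.7 TPM. The order was the same in both libraries, and all 9 neighbouring pairs had separate intervals in both. The plot of the 10 levels shows these steps. Gene levels include transcripts without a coding region, so the order is not one of coding RNA. Over complete coding transcripts Fn1 had 63.1 and 55.0 TPM, below Postn with 95.7 and 79.3 TPM and Npnt with 82.9 and 77.1 TPM. Of the Sparc level, 867 and 787 TPM came from Sparc-205, a retained-intron transcript without a coding region. Its complete coding transcripts were Sparc-201 with 454 and 450.4 TPM and Sparc-202 with 326 and 298 TPM. Thbs1-201 had 154.9 and 154.7 TPM, so over complete coding transcripts Sparc still led, but by less than 10-fold.

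**Figure D1:**
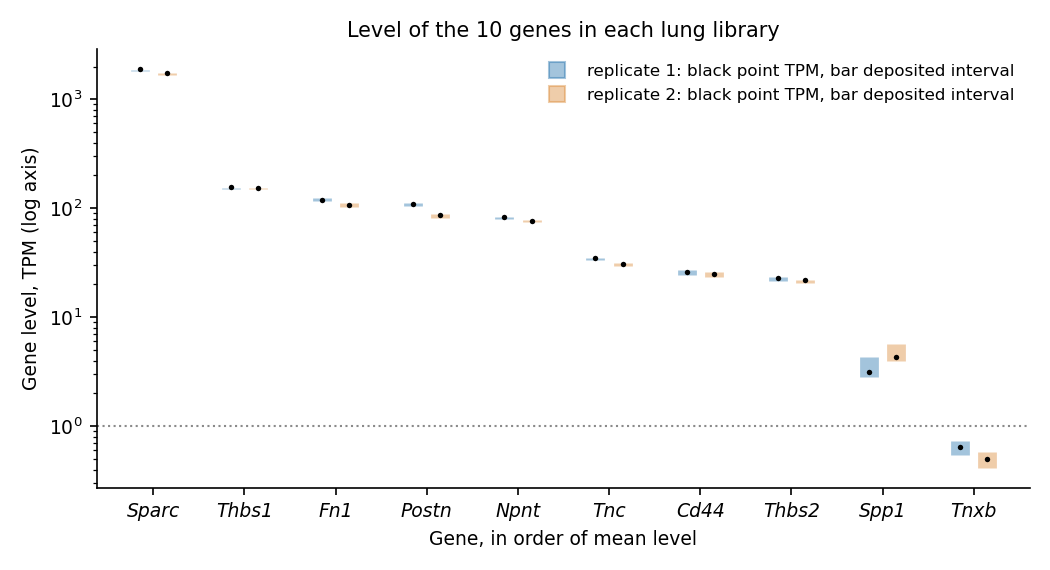
Level of each gene in TPM on a log axis (black points) with the deposited TPM interval (bars), replicate 1 left in blue and replicate 2 right in orange; the dotted line is the 1 TPM minimum. Sparc stands at 1890.3 and 1758 TPM, Spp1 at 3.14 and 4.34 TPM and Tnxb under the line at 0.65 and 0.50 TPM.

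Fibronectin followed Sparc and Thbs1 in the order. Fn1 (ENSMUSG00000026193.11; chromosome 1, 71585520 to 71653200) had 120.2 and 107 TPM, a mean of 114 ± 9.21. Tenascin C, a large hexameric glycoprotein of embryonic and remodelling mesenchyme, was lower: Tnc (ENSMUSG00000028364.11; chromosome 4, 63959785 to 64047015) had 34.7 and 30.9 TPM, a mean of 32.8 ± 2.69. The ratio of Fn1 to Tnc was 3.46 in each library. Tenascin X, which binds collagen fibrils in adult connective tissue, was under the minimum: Tnxb (ENSMUSG00000033327.12; chromosome 17, 34670535 to 34719815) had 0.65 and 0.50 TPM, a mean of 0.575 ± 0.106. Its reads were 194 and 143, so it was present in both libraries, and Tnc was 53.4 and 61.9 times higher.

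Both thrombospondins, secreted glycoproteins that bind CD47 and CD36, were detected. Thbs1 (ENSMUSG00000040152.8; chromosome 2, 118111876 to 118127133) had 155.3 and 155.1 TPM, a mean of 155 ± 0.148, and was the second of the 10. Thbs2 (ENSMUSG00000023885.8; chromosome 17, 14665500 to 14694235) had 22.9 and 21.9 TPM, a mean of 22.4 ± 0.714. Thbs1 was thus 6.77 and 7.07 times Thbs2.

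Periostin, which binds collagen I and integrins and is made by mesenchymal cells, had the widest ratio between libraries among the genes over 5 TPM here. Postn (ENSMUSG00000027750.12; chromosome 3, 54361109 to 54391037) had 110.3 and 86.3 TPM, a mean of 98.3 ± 17.0. Sparc, a collagen-binding glycoprotein also called osteonectin, was the most abundant: it (ENSMUSG00000018593.8; chromosome 11, 55394500 to 55423183) had 1890.3 and 1758 TPM, a mean of 1824 ± 93.7. Over all Ensembl genes its mean took place 41. For Sparc and Thbs1 the TPM lay just above the upper bound of the deposited interval in both libraries, since the intervals are placed around another estimate, the posterior mean.

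Among the integrin ligands, nephronectin far exceeded osteopontin. Npnt (ENSMUSG00000040998.14; chromosome 3, 132881745 to 132950291), which encodes a basement membrane ligand of integrin α8β1, had 82.9 and 77.1 TPM, a mean of 80.0 ± 4.11. Spp1 (ENSMUSG00000029304.10; chromosome 5, 104435118 to 104441050), which encodes osteopontin, had 3.14 and 4.34 TPM, a mean of 3.74 ± 0.849, from 109 and 140 reads. Cd44 (ENSMUSG00000005087.13; chromosome 2, 102811141 to 102901665), the receptor of the set, had 26.1 and 25.1 TPM, a mean of 25.6 ± 0.707. Cd44 thus exceeded its ligand Spp1 in both libraries.

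The comparison of the 2 pools asked how far these levels repeat. After TMM scaling, which adds 0.07 to the log2 ratio of TPM, log2 ratios (replicate 2 over replicate 1) were -0.28 for Postn, -0.10 for Tnc, -0.09 for Fn1, -0.03 for Sparc and Npnt, 0.01 for Thbs2, 0.02 for Cd44 and 0.07 for Thbs1. The widest ratios were 0.54 for Spp1 and -0.31 for Tnxb, the least abundant genes, and the deposited intervals of both genes overlapped between libraries. By the rule of a mean of 5 TPM, a 2-fold difference and separate intervals, Spp1 and Tnxb lay under that mean and could not be called. None of the other 8 genes was apart between the libraries, against 0.364% of the 11261 genes over that mean (0.249% higher in replicate 1 and 0.115% higher in replicate 2). The intervals alone were separate for 5 of these 8, namely Fn1, Tnc, Postn, Sparc and Npnt, against 17.4% of the 11261 genes, and all 5 were higher in replicate 1. These intervals were compared before scaling, and without it Cd44, Thbs1 and Thbs2 turn to slightly lower in replicate 2 as well.

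Genes on the opposite strand overlap 6 of the 10 loci, and whether counting used strand is not given in the sources used here. By mean level the highest of these opposite genes was Gm29233 at Thbs1 with 1.67 and 1.57 TPM, 1.04% of the mean of Thbs1, and Apol7d at Fn1 had 0.63 and 1.98 TPM. At Tnc 8030451A03Rik had 0.79 and 0.69 TPM, 2.25% of the mean of Tnc. At Cd44, Npnt and Tnxb the opposite genes were listed at 0 in both libraries. In M21 Gm42793 overlaps Spp1 on the same strand, and its level was not analysed here.

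Of the 64 transcripts, 30 were detected, against 29.0% of all Ensembl transcripts, 17 were listed at 0 in both libraries, and 22 held 10% or more of their gene in at least 1 library. The 10 genes fell into 3 kinds. By TPM, Spp1, Thbs1 and Thbs2 came from a single transcript each, or nearly so. Tnc, Postn, Npnt, Cd44 and the barely expressed Tnxb came from a few coding ones. Fn1 and Sparc came from coding transcripts beside a large annotated retained-intron transcript. For scale, the leading transcript held a median of 69.4% and 70.2% of the TPM over 9530 detected protein-coding genes with 2 or more transcripts.

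Spp1-201 held 100% of Spp1, whose other 6 transcripts were at 0, although the posterior mean, which spreads reads over near-identical transcripts, gave it 64.1%. Thbs1-201 held 99.8% of Thbs1 in both libraries, and Thbs2-201 is the sole transcript of Thbs2. No other form of Spp1 or Thbs1 passed the minimum by TPM, and for Thbs2 no other form was listed that could be detected.

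Fibronectin RNA was shared by coding and intron-retaining transcripts. Fn1-201, which carries EIIIB, EIIIA and the whole V segment, had 40.8 and 35.5 TPM, or 34.0% and 33.1% of the gene. Fn1-202, a retained-intron transcript of 4022 nt without a coding region, had 39.3 and 36.3 TPM, or 32.7% and 33.9%. The order of these 2 changed between the libraries and their intervals overlapped, so neither can be called higher. By estimated reads, which are not divided by length, Fn1-201 of 8315 nt held 48.4% and 47.6% and Fn1-202 held 22.2% and 23.3%.

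All retained-intron transcripts of Fn1 together held 45.7% and 46.4% of its TPM and 26.1% and 26.9% of its reads. The median over 5265 detected protein-coding genes with such a transcript was 8.27% and 7.69% of TPM and 4.29% and 3.92% of reads. Total RNA holds unspliced and partly spliced molecules beside messenger RNA, and their part here was not tested. Fn1-202 holds 626 nt that Fn1-201 lacks and shares 3396 nt with it.

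**Figure D2:**
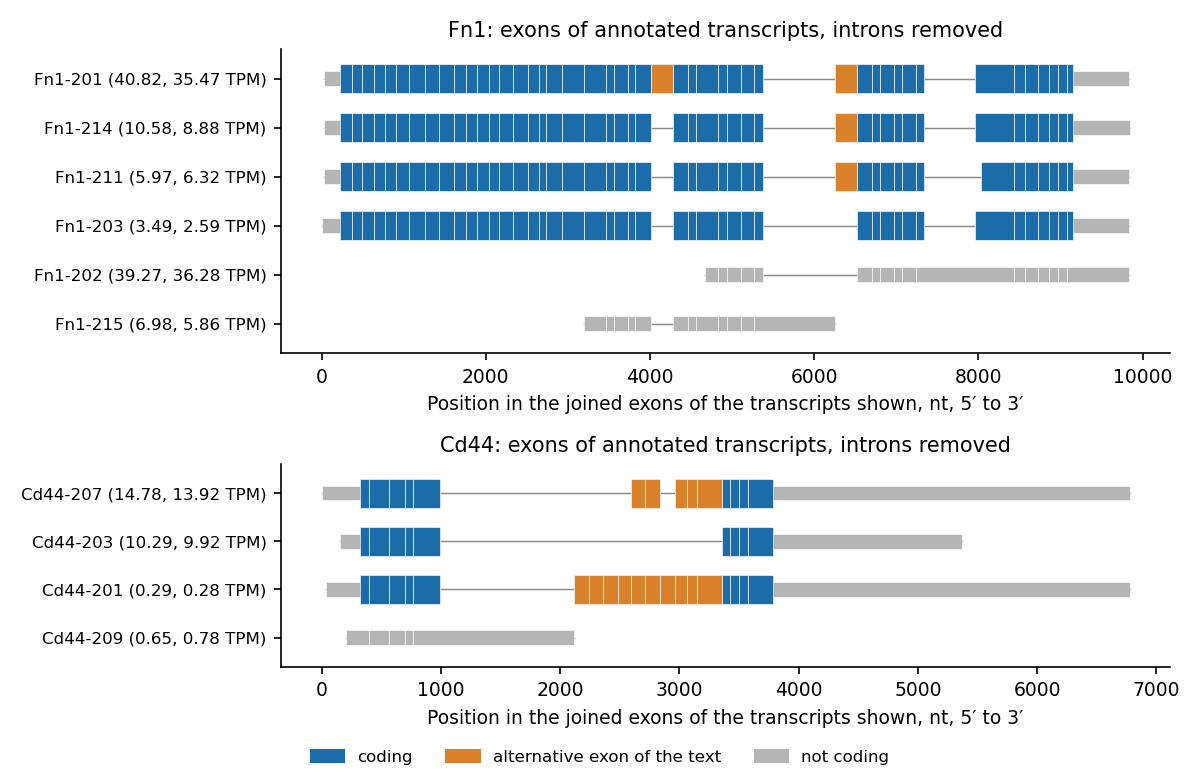
Exon maps of Fn1 (upper) and Cd44 (lower) transcripts with introns removed, drawn 5′ to 3′ in nt of the joined exons, with TPM of replicate 1 and 2 beside each name; blue is coding, orange an alternative coding exon named in the text, grey not coding. Fn1-201 alone holds EIIIB, and the retained-intron Fn1-202 passes over EIIIA; Cd44-207 holds 5 of the 10 alternative exons, Cd44-203 none and Cd44-201 all 10.

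Over complete coding transcripts EIIIA inclusion could not lie below that of EIIIB, since the annotated form with EIIIB also holds EIIIA. The order of these exons is thus fixed by the annotation. Over all annotated transcripts they were counted on unlike sets. Inclusion is the TPM of transcripts that hold an exon as a percent of the TPM of those that hold it or pass over it, and it rests on the deposited assignment of reads to annotated transcripts, not on junction reads. EIIIB was included at 58.3% and 58.3%, a mean of 58.3 ± 0.0391 (n = 2). Over transcripts with a complete coding region alone it was 64.7% and 64.5%. The EIIIB form Fn1-201 and the EIIIB-less Fn1-214 (10.6 and 8.88 TPM) differ by the 273 nt of the exon and by 3 and 4 nt at their ends, and no annotated transcript holds EIIIB without EIIIA.

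EIIIA depended on which transcripts were counted. It was included at 56.1% and 57.4%, a mean of 56.8 ± 0.896, over all transcripts across it, and at 91.1% and 95.3%, a mean of 93.2 ± 2.98, over complete coding transcripts. The gap is the retained-intron Fn1-202, which passes over EIIIA at 39.3 and 36.3 TPM. Fn1-202 starts 3′ of EIIIB and does not count for it, so the values of EIIIB and EIIIA over all transcripts cannot be set side by side. They rest on 70.1 and 60.8 TPM for EIIIB and on 102 and 91.2 TPM for EIIIA. The complete coding forms that lack both modules were Fn1-203 at 3.49 and 2.59 TPM, Fn1-216 at 2.14 and 0 TPM and Fn1-217, listed at 0 in both libraries.

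The V segment, which holds the leucine, aspartate and valine codons printed above, was mostly whole. Over the 7 full-length coding transcripts, those with the whole segment held 87.0% and 85.4% of TPM, a mean of 86.2 ± 1.14. Those without its first 75 nt, and so without the marked codons, held 9.46% and 11.5%, a mean of 10.5 ± 1.44. Those without all 360 nt held 3.52% and 3.09%, a mean of 3.31 ± 0.301. The last value came from Fn1-216 (2.14 and 0 TPM) and Fn1-213 (0.08 and 1.70 TPM), which changed places between the libraries. The other whole alternative exons of Fn1 were 5 exons in the 5′ part, at 100% in both libraries. Fn1-210, annotated as a target of nonsense-mediated decay, ends an exon after the first 106 nt of the V segment and had 2.21 and 2.47 TPM.

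**Figure D3:**
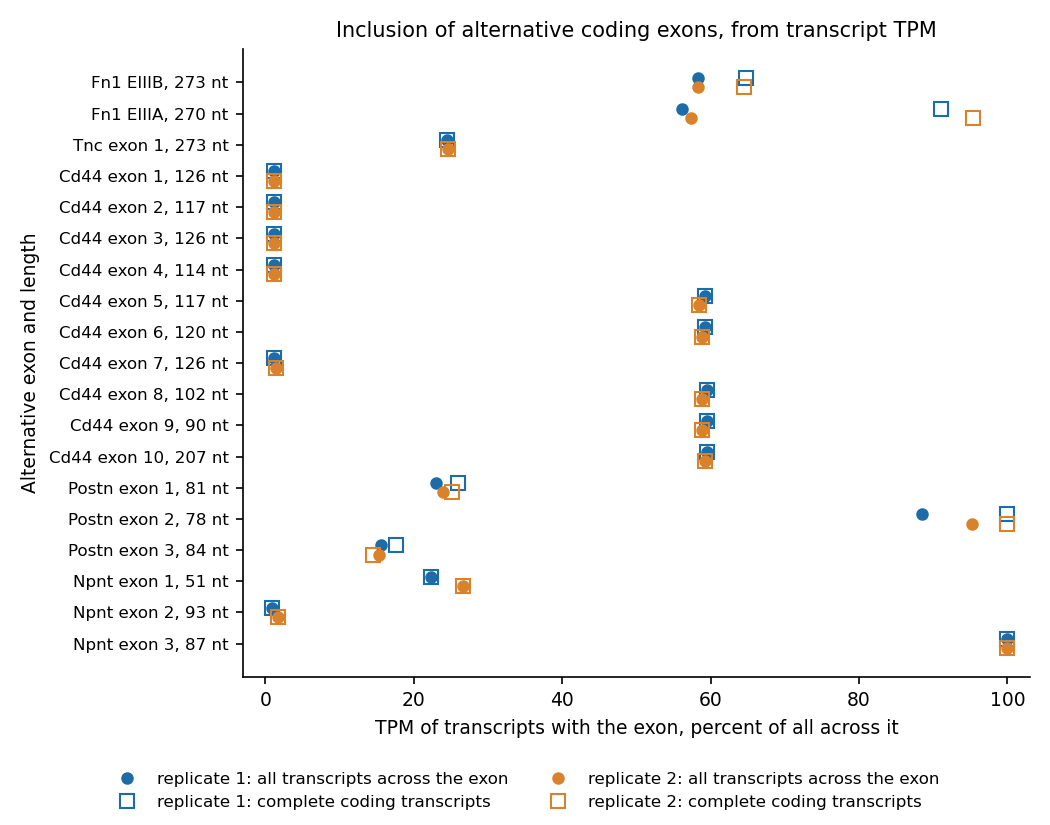
Inclusion of each alternative coding exon in percent (x axis), from all transcripts across it (filled circles) and from complete coding transcripts (open squares), replicate 1 in blue and replicate 2 in orange. EIIIA moves from 56.1% and 57.4% to 91.1% and 95.3%, and the Cd44 exons form a group near 59% and a group near 1%.

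Tenascin C RNA was mainly of annotated forms without the 273-nt module. No other whole coding exon of Tnc was alternative in the annotated transcripts, so forms that lack other modules were not measured. Tnc-204 had 21.4 and 22.1 TPM, or 61.5% and 71.3% of the gene, and Tnc-203 had 8.49 and 7.57 TPM, or 24.4% and 24.5%. The 273-nt module separates them in the coding region, and its inclusion was 24.5% and 24.6%, a mean of 24.5 ± 0.0573. The other transcript without the module, Tnc-201, has the same coding length of 6057 nt as Tnc-204 and a first exon that starts 26290 nt away. It had 4.83 and 1.18 TPM, or 13.9% and 3.83% of the gene. These intervals overlapped between the libraries, so no change in the level from this start can be called. Tnxb-201 held 71.0% and 83.2% of the low Tnxb signal and Tnxb-202, which lacks 2640 coding nt in 8 exons, the rest.

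Periostin RNA was divided among 3 complete coding forms. Postn-204, which lacks both printed exons, led with 54.0 and 47.9 TPM, or 48.9% and 55.5% of the gene. Postn-203, with the 81-nt exon, had 24.8 and 19.9 TPM, and Postn-201, with the 84-nt exon, had 16.9 and 11.5 TPM. All 3 differed from each other in level in both libraries. Inclusion was 22.9% and 23.9% for the 81-nt exon, a mean of 23.4 ± 0.659, and 15.5% and 15.3% for the 84-nt exon, a mean of 15.4 ± 0.159. Postn-202, the form that holds both exons, was listed at 0 in both libraries.

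Another exon of Postn, of 78 nt, was included at 88.5% and 95.2%. It is passed over by Postn-206 alone, an incomplete transcript of 655 nt with 12.5 and 4.04 TPM, of which 1 nt is not in Postn-204. Over complete coding transcripts this exon was at 100%. By reads Postn-206 held 2.28% and 0.898% of the gene.

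SPARC RNA was led by different transcripts by TPM and by reads. Sparc-205, a retained-intron transcript of 741 nt, had 867 and 787 TPM, or 45.9% and 44.8% of the gene, above Sparc-201 with 454 and 450.4 TPM. By reads Sparc-201, of 2300 nt, led with 42.6% and 44.7%, and Sparc-205 held 23.8% and 22.8%. Sparc-202 had 326 and 298 TPM, and Sparc-206, a coding transcript of 640 nt that lies within the exons of Sparc-202, had 240.0 and 221 TPM. Of the 741 nt of Sparc-205, 94 are not in Sparc-201, so most of its sequence is shared with the coding form. The levels of these 4 differed from each other in both libraries. Sparc-201 and Sparc-202 differ by 3 coding nt and by 182 nt at the 5′ end.

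**Figure D4:**
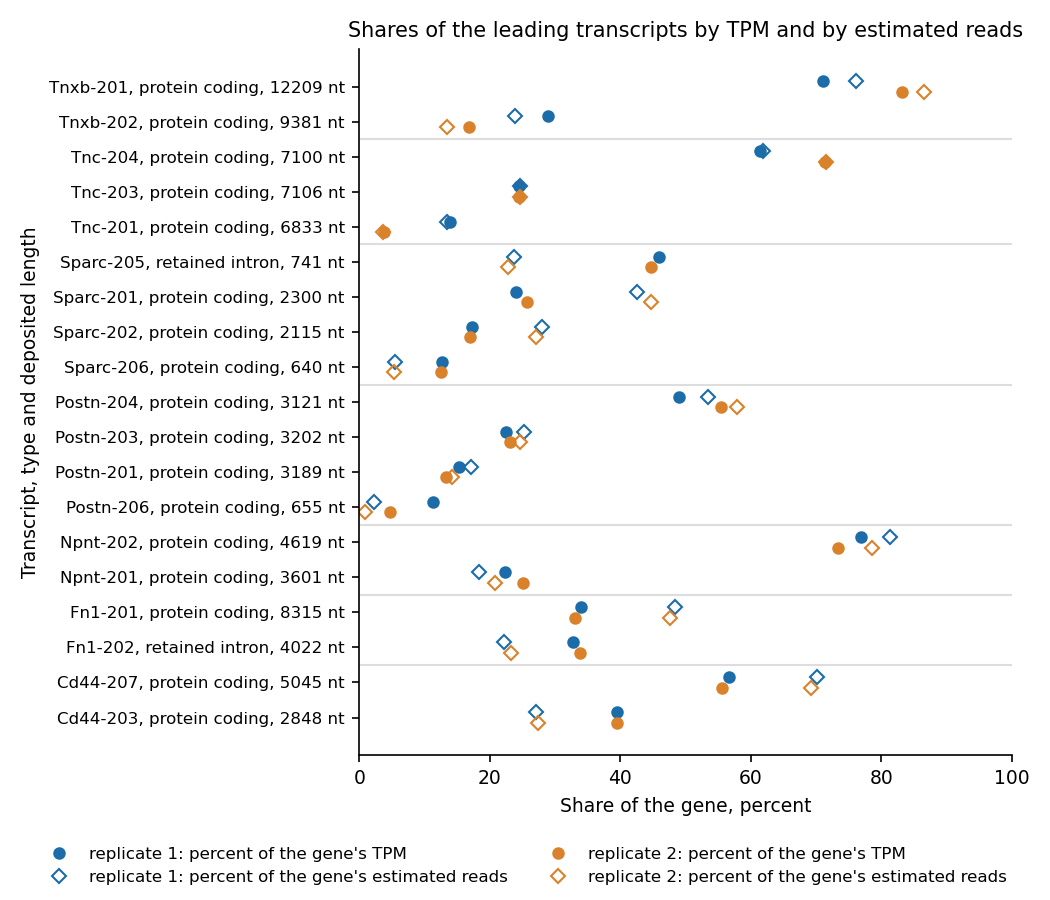
Share of each named transcript in its gene (x axis, percent), by TPM (filled circles) and by estimated reads (open diamonds), replicate 1 in blue and replicate 2 in orange; Spp1, Thbs1 and Thbs2 are left out because a single transcript held nearly all of each. Short retained-intron transcripts fall when reads are counted: Sparc-205 goes from 45.9% and 44.8% to 23.8% and 22.8%.

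Nephronectin RNA was mainly without its 51-nt exon. Npnt-202, which lacks it, had 63.7 and 56.5 TPM, or 76.9% and 73.3% of the gene, and Npnt-201, which holds it, had 18.5 and 19.3 TPM, or 22.3% and 25.0%. Inclusion of the exon was 22.3% and 26.7%, a mean of 24.5 ± 3.10. Npnt-202 also reaches 938 nt further 3′ and 131 nt further 5′, and the part of these ends in the split was not tested. A 93-nt exon was at 0.856% and 1.63% and an 87-nt exon at 100%.

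CD44 RNA was of a variable and of a standard form. Cd44-207, which holds exons 5, 6, 8, 9 and 10, had 14.8 and 13.9 TPM, or 56.7% and 55.5% of the gene. Cd44-203, the standard form without any variable exon, had 10.3 and 9.92 TPM, or 39.5% and 39.6%. The levels differed in both libraries. Exons 8 to 10 together are the variable part of the form known as epithelial CD44. Cd44-207 holds exons 5 and 6 as well, and Cd44-205, the annotated transcript with exons 8 to 10 alone, had 0.06 and 0 TPM.

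The 10 variable exons of Cd44 fell into 2 groups. Exons 5, 6, 8, 9 and 10 were included at 58.4% to 59.5% in the libraries, with exon 10 at 59.5% and 59.2%, a mean of 59.3 ± 0.243. Exons 1 to 4 and exon 7 were at 1.14% to 1.48%. These last rest nearly alone on Cd44-201, the form with all 10 exons, at 0.29 and 0.28 TPM. Exons of 1 transcript share its value and are not independent measurements.

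Cd44-207 and Cd44-203 also differ outside the stem. Beside 636 coding nt in the variable exons, Cd44-207 reaches 1406 nt further 3′ and 155 nt further 5′ than Cd44-203, and no transcript in the tables joins the standard stem to that long 3′ end. The part of the ends in the split was not tested. By reads, Cd44-207 held 70.1% and 69.2% and Cd44-203 held 27.1% and 27.4%. A retained-intron transcript, Cd44-209, had 0.65 and 0.78 TPM.

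Relatives, receptors and regulators were described from 10 lists of 53 genes, of which 42 were detected, against 33.6% of all Ensembl genes. Of the 53 genes, 0 were apart between the libraries, but those averaging under 5 TPM could not be called. Among the 11261 Ensembl genes that could be called, only 0.364% were apart, so a count of 0 says little about these lists. The plot of the levels of the 53 genes shows which lists lay above and which below the minimum of 1 TPM. With lists chosen in this way the counts describe the lung and no list was tested. The splicing regulators lay highest, with a median of 256 and 258 TPM, and the other tenascins lowest, with 0.345 and 0.29 TPM.

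**Figure D5:**
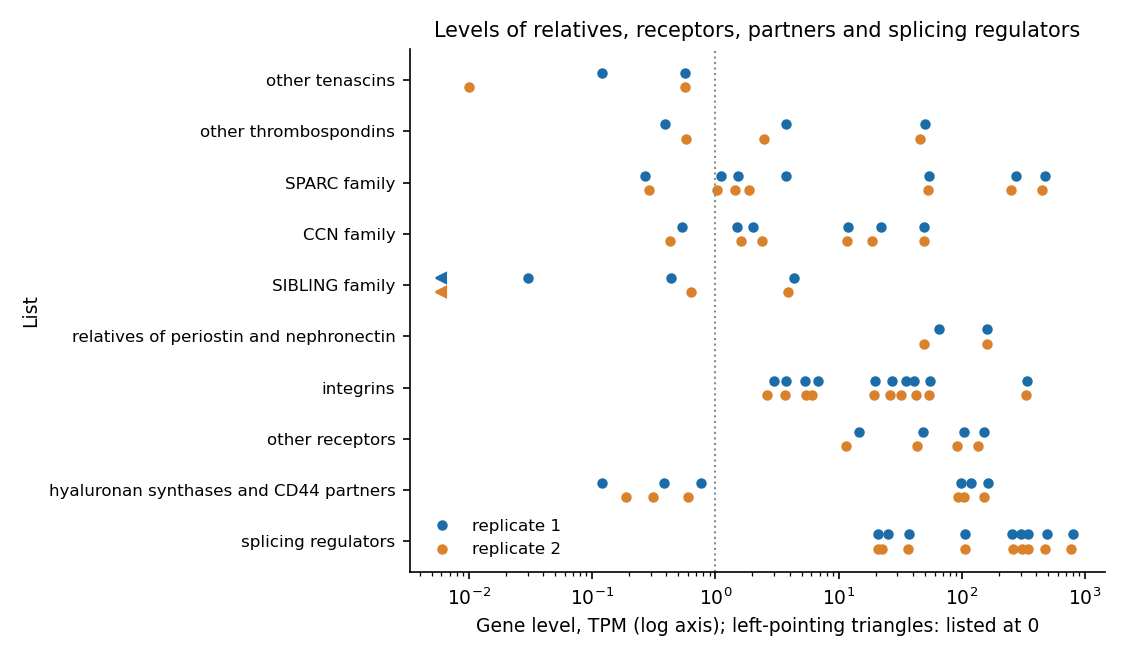
Level of each companion gene in TPM on a log axis, 1 row per list, replicate 1 in blue and replicate 2 in orange; the dotted line is 1 TPM and left-pointing triangles are genes listed at 0 (triangles of 2 genes coincide in replicate 2). All 10 integrins and all 9 splicing regulators lie above the line, and both other tenascins below it.

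Among the relatives, Tnc was the one tenascin detected. Tnn had 0.57 TPM in both libraries and Tnr 0.12 and 0.01 TPM, so 0 of 2 passed. Of the other thrombospondins 2 of 3 were detected, with Thbs3 at 49.9 and 46.1 TPM, Thbs4 at 3.73 and 2.49 TPM and Comp, the cartilage member, at 0.39 and 0.58 TPM. Thbs3 thus lay above Thbs2 and below Thbs1.

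In the SPARC family 6 of 7 were detected, led by Fstl1 at 471 and 443 TPM, Sparcl1 at 273 and 251 TPM and Smoc2 at 54.5 and 52.9 TPM. Spock1 was lowest at 0.27 and 0.29 TPM. Sparc itself was 4.01 and 3.97 times Fstl1 and 6.93 and 6.99 times Sparcl1. Of the CCN family, secreted matricellular proteins with integrin-binding modules, 5 of 6 were detected, led by Ccn1 at 49.1 and 49.1 TPM, Ccn4 at 22.0 and 18.7 TPM and Ccn2 at 12.0 and 11.8 TPM, with Ccn6 lowest at 0.54 and 0.43 TPM.

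Of the SIBLING family, the acidic phosphoproteins of bone and tooth to which osteopontin belongs, 1 of 4 was detected. Ibsp had 4.32 and 3.86 TPM, Dmp1 0.44 and 0.63 TPM and Dspp 0.03 and 0 TPM, and Mepe was listed at 0 in both libraries. Ibsp thus lay close to Spp1. The relatives of periostin and nephronectin were both detected, Tgfbi at 158.7 and 158.5 TPM and Egfl6 at 65.0 and 49.1 TPM. Postn lay below Tgfbi, and Npnt lay above Egfl6, with separate intervals in both libraries.

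All 10 integrin subunits that bind these proteins were detected. Itgb1, the common β1 partner, led with 340 and 332 TPM, followed by Itgav at 54.7 and 53.9 TPM and Itgb5 at 41.1 and 42.4 TPM, with Itgb8 lowest at 3.01 and 2.61 TPM. Itga8, the partner subunit for nephronectin, had 27.0 and 26.1 TPM, and Itga5, that for fibronectin, had 34.9 and 32.2 TPM. Itga9 and Itga4, which bind the loop in EIIIA, had 19.9 and 19.4 TPM and 6.84 and 5.40 TPM.

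The other receptors were 4 of 4 detected. Sdc4, a heparan sulfate proteoglycan that binds fibronectin, had 151 and 135 TPM, the thrombospondin receptor Cd47 had 105 and 91.8 TPM and the hyaluronan receptor Hmmr had 48.0 and 43.2 TPM, with Cd36 lowest at 14.7 and 11.5 TPM. Of the hyaluronan synthases and partners of CD44, 3 of 6 were detected. The linkers of CD44 to actin, Msn at 164 and 152 TPM, Ezr at 118 and 105 TPM and Rdx at 98.7 and 92.5 TPM, were the detected ones. The synthases Has2 (0.77 and 0.60 TPM), Has1 (0.38 and 0.31 TPM) and Has3, the lowest at 0.12 and 0.19 TPM, stayed under the minimum.

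All 9 splicing regulators were detected, led by Srsf3 at 800 and 772 TPM, Srsf5 at 490.5 and 476 TPM and Tra2b at 346 and 345 TPM. Rbfox2 was lowest at 20.96 and 20.76 TPM. The epithelial splicing regulators Esrp1 and Esrp2, known to act on Cd44 and other transcripts in epithelium, had 25.0 and 22.6 TPM and 37.2 and 36.5 TPM, and their part in the exon values was not tested.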

How the data were processed

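Total RNA-seq of 2 libraries from pools of whole embryonic lung was used, which form 1 group. The libraries carry separate biological replicate numbers in the labels, and each pool has 1 library, so the spread between pools and between preparations cannot be told apart. Per the labels, 10 ng of RNA longer than 200 nt entered each library.

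The authors deposited a gene and a transcript table per library. The expected counts are estimated reads that need not be whole, per the file headers. TPM values and FPKM values are levels per effective length, per the file headers, and the deposited percent is the share of a transcript in the TPM of its gene. The tables also give posterior mean values and TPM intervals whose level the headers do not state. These intervals cover counting and read assignment only, not the spread between pools. Build mm10 and GENCODE M4 appear in the deposited text. Which program made the tables, and whether it used strand, is not given in the sources used here. Names, positions, transcript types and exons came from GENCODE M21 on the same build, matched by identifier, and 61 of the 64 transcripts had the same length in both releases.

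Expected counts were rounded and scaled with TMM (edgeR 4.0.16, R 4.3.3), with factors of 1.01 and 0.989; DESeq2 1.42.0 size factors were the alternative. Python 3.11.15 did the rest, and the scripts were tested on simulated data. With 1 group no test between conditions exists. All 10 genes are named, transcripts are named from 10% of a gene in either library or where they carry a described exon, and of each companion list the highest 3, the lowest and those at 0. Alternatives were the minimum TPM, the fold, the scaling, the estimate of TPM, the transcripts counted and leaving out either library. The genes, lists and rules were chosen with earlier results of these data known, and the V segment was added after its values were seen. No genome or protein sequence was used here.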

Additional observations from a re-analysis of the deposited data

How the results depend on the processing

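The order of the 10 genes was the same by posterior mean TPM, with all 10 in place. FPKM keeps the order of TPM within a library and both libraries already had 1 order, so FPKM and either library alone could not change it. Over complete coding transcripts Fn1 lay below Postn and Npnt in both libraries. The number of genes detected was 9 without either replicate, 10 at 0.5 TPM or with any estimated read, and 8 at 5 TPM. The number of transcripts detected was 32 to 33 in either library alone, 32 at 0.5 TPM and 20 at 5 TPM, against 30. The alternatives for genes apart between the libraries, by minimum, fold, scaling or exact binomial test, all kept a 2-fold or a 1.5-fold difference. The widest log2 ratio, 0.54 for Spp1, was under both folds. No gene could thus be apart by any of them, and the result says nothing of stability. Leaving out a library gives the value of the other, which with 2 libraries always lies within 1 SD of the mean, so it says nothing of stability. Under TPM without further scaling the log2 ratio of replicate 2 over 1 changed sign for Cd44 (-0.056), Thbs1 (-0.0020) and Thbs2 (-0.065).

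Shares moved most with the transcripts counted and with the measure. Counting complete coding transcripts alone gave 93.2% for EIIIA, 64.6% for EIIIB, 25.5% for the 81-nt and 16.0% for the 84-nt exon of Postn. Counting protein-coding transcripts alone gave 64.6% for Fn1-201, 57.7% for Cd44-207 and 100% for Thbs1-201. By estimated reads the mean shares were 48.0% for Fn1-201, 69.7% for Cd44-207, 23.3% for Sparc-205, 80.0% for Npnt-202 and 99.98% for Thbs1-201. Posterior means gave 32.9% for Fn1-201, 64.1% for Spp1-201, 99.6% for Thbs1-201, 58.5% for EIIIB, 24.6% for the Tnc exon, 60.0% for Cd44 exon 10, 15.7% for the 84-nt Postn exon, and, chosen after seeing the data, 84.7% for the whole V segment and 4.42% for its loss. At a minimum of 0.5 TPM 1 of the other tenascins was detected. At 5 TPM the counts were 1 for the other thrombospondins, 3 for the SPARC family, 3 for the CCN family and 0 for the SIBLING family.

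No paired analysis was possible because there is a single group. Spp1 and Tnxb rest on 109 to 194 reads a library, which limits their values, and the transcript shares are limited by how few bases some forms hold alone.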
